A study of Mus musculus with 15 samples.

Results

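Insulin-like growth factors and the proteins that receive and bind them were followed in whole mouse cerebella. The set comprised both ligands (Igf1, Igf2), both receptors (Igf1r, Igf2r) and 6 binding proteins (Igfbp2 to Igfbp7). These are 10 of the 16593 genes and 14 of the 25697 probes on the array, taken by name with every probe listed for them. They were then divided by whether their signal followed Col1a1, a collagen chain made by fibroblasts of the meninges, from array to array. The largest spread in the set was that of Igf2. It was low, as Col1a1 was, on 3 KO arrays. Over all arrays 2 binding proteins (Igfbp4 and, less firmly, Igfbp6) followed Col1a1 as well. In WT alone, or without those 3 arrays, only Igf2 did. No member differed between KO and WT at an adjusted p under 0.05.

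IGF1 and IGF2 are secreted growth factors that signal through IGF1R, a receptor tyrosine kinase, towards cell growth and survival. IGF2R carries IGF2 to the lysosome and removes it. The binding proteins hold the ligands outside the cell and set how much reaches the receptors, and proteases that cut them release the ligand. In the developing brain Igf2 is known chiefly from the meninges, the choroid plexus and blood vessels, whereas Igf1r is widely expressed by neural cells.

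Cerebella were taken from C57BL/6 mice on postnatal day 1 and hybridised 1 sample to an array, giving 8 WT and 7 KO arrays. KO animals were Cxcr4 flox/flox; Sox1-Cre, and WT animals were littermates without Cre, whose own floxed alleles are not stated in the sources used here. Sox1-Cre acts in the embryonic neural tube, and meningeal fibroblasts, endothelium and blood are not its stated target. Whether Cre was also active in any of these cells is not stated in the sources used here. Replicates are called biological in the study's methods.

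The deleted gene was checked first. Cxcr4, the receptor of the chemokine CXCL12, lay between 8.80 and 9.79 on the WT arrays and between 6.45 and 6.89 on the KO arrays on the log2 scale used throughout. All values are log2 signals of the brightest probe of a gene, scaled so that every array has the same median of 6.84. A value near that median is dim. Signals of different probes are not compared with each other.

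A few features of the whole series touch these genes. KO replicates 6, 7 and 8 stood apart in meningeal transcripts, with Col1a1 between 6.54 and 7.50 against 8.32 to 9.82 on the other 12 arrays. Dcn, a proteoglycan of the same fibroblasts, lay between 6.56 and 9.81 on those 3 and between 10.86 and 12.48 elsewhere. Over 38 measured meningeal genes the mean deviation from each gene's average over the 15 arrays was -1.04 to -0.73 on the 3 arrays, -0.19 to 0.61 on the other 4 KO arrays and -0.25 to 0.66 in WT. The same 3 arrays were also lowest in other lists, and by less. The mean deviation on them was -0.33 to -0.27 over 21 endothelial genes (0.06 to 0.10 on the other KO arrays), -0.58 to -0.37 over 15 genes of microglia and macrophages (-0.20 to 0.37) and -0.25 to -0.23 over 14 of pericytes and smooth muscle (-0.06 to 0.18). Over 8 Purkinje cell genes it was 0.16 to 0.31, above the -0.22 to -0.01 of the other KO arrays. Over 9 granule lineage genes it was 0.11 to 0.19 (-0.06 to 0.03 on the other KO arrays). Over 10 genes of astroglia it was -0.19 to -0.11 (0.02 to 0.08 on the other KO arrays, -0.13 to 0.16 in WT). Over 5 erythroid genes the 3 arrays (-0.21 to 0.07) overlapped with the other KO arrays (-0.38 to 0.16). What part these had in the values below was not tested. Ttr, the main choroid plexus transcript, was at 15.46 or more on 6 arrays (WT replicates 4, 6 and 8 and KO replicates 2, 3 and 5) and between 7.20 and 10.59 on the other 9. Over 12 choroid plexus genes the mean deviation ran from -0.98 to 1.56 in WT and from -1.22 to 1.82 in KO, with KO replicates 6, 7 and 8 at -1.22 to -1.09. Of markers of the cerebellum, Barhl1 of granule cell precursors, the 1 of 9 granule lineage genes called between genotypes, read 11.03 to 11.37 in WT and 11.48 to 12.01 in KO, Rora 10.50 to 10.85 and 10.29 to 11.05, and Neurod1 7.02 to 7.46 and 7.16 to 7.49, whereas Atoh1, Calb1 and Pcp4 lay below the array median on all arrays. Xist, expressed in females, was above 8 on 6 arrays of WT and 1 array of KO. Beside genotype, arrays numbered 1 to 4 differed from those numbered 5 to 8 in 20.8% of all genes at an adjusted p under 0.05, and these are called the 2 array sets. In whole tissue, fewer cells of a type and less RNA per cell cannot be told apart.

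**Figure D1:**
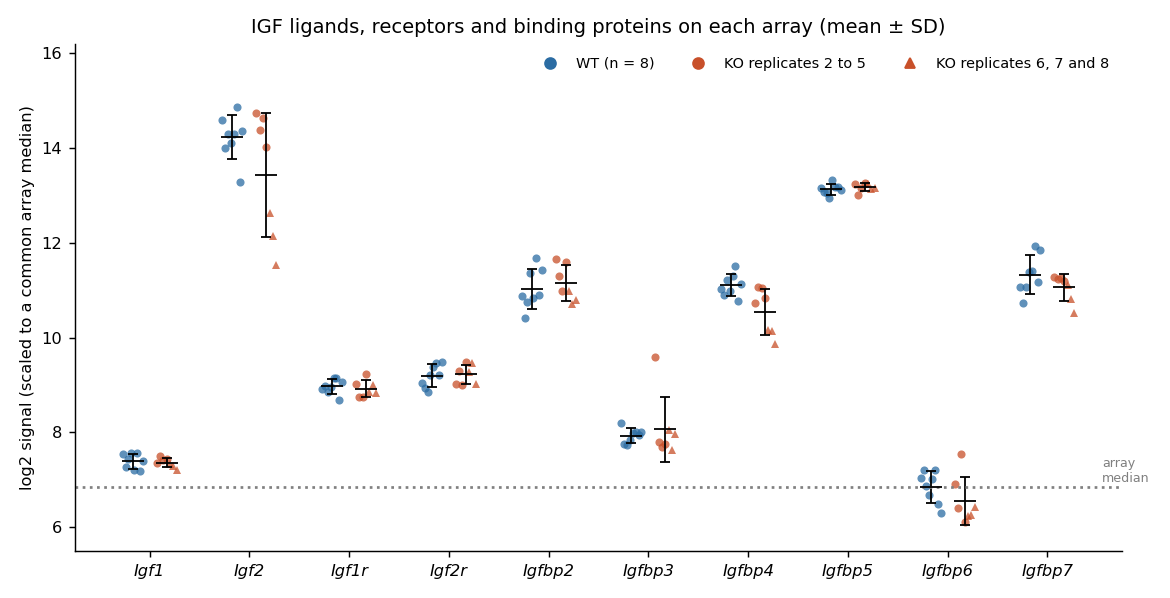
Log2 signal of the 10 genes on each array, for WT (blue) and KO (red), with the mean and SD in black and the common array median dotted. Triangles mark KO replicates 6, 7 and 8, which lie at 11.54 to 12.63 for Igf2 and at 9.86 to 10.17 for Igfbp4, below every other array, while both genotypes overlap for the receptors and for Igfbp5.

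Bases just before the annotated start are shown for the genes that followed Col1a1 and for Igfbp5, which varied least. They come from the RefSeq promoter table of GRCm38.p6, in which all 10 genes have an entry. Igf2 has 4 annotated starts there, and the start nearest the end of the gene is printed, because the array does not say which start was used. Each stretch is the 100 bases before the start, 5′ to 3′ on the gene's strand. Capitals mark TATAAA, a core promoter element, or GGGCGG, the core of sites for SP1-type factors, on either strand. The 2 motifs do not overlap in the stretches shown.
Igf2 (chr7:142657497-142657596, minus strand): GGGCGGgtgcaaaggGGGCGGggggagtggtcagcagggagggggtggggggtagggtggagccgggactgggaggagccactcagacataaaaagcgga
Igfbp4 (chr11:99041144-99041243, plus strand): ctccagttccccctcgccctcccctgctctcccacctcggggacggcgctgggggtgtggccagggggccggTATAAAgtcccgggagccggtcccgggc
Igfbp6 (chr15:102144086-102144185, plus strand): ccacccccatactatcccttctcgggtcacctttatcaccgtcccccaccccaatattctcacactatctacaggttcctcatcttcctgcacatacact
Igfbp5 (chr1:72874866-72874965, minus strand): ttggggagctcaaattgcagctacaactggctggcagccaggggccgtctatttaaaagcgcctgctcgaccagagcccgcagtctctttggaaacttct

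TATAAA was found for Igfbp4 alone among the 14 starts of the 10 genes, beginning 28 bases before the start, and 5.56% of 32851 promoters of the same length hold it. GGGCGG was found at 6 of the 14 starts, in Igf2, Igf1r, Igf2r, Igfbp2 and Igfbp7, and 24.7% of all promoters hold it. The 3 genes that followed Col1a1 therefore shared neither run of letters in these stretches. GC content was 69% for Igf2, 75% for Igfbp4, 51% for Igfbp6 and 55% for Igfbp5, and the median of all promoters was 55%. A match is only a run of letters, and no factor's binding was measured.

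Among the ligands, Igf2 varied most. In WT its log2 signal was 13.28 at the lowest, 14.31 at the median and 14.86 at the highest. In KO it was 11.54 at the lowest, 14.02 at the median and 14.75 at the highest. KO replicates 6, 7 and 8 read 12.63, 12.14 and 11.54 and lay below every WT array, whereas the other 4 KO arrays lay within the WT range. The lowest WT array was replicate 7, which also had the lowest Col1a1 in WT, at 8.42. WT arrays averaged 14.23 ± 0.47 (SD, n = 8). KO arrays averaged 13.44 ± 1.31 (SD, n = 7). KO minus WT was -0.79 (standard error 0.41, 95% confidence interval -1.64 to 0.06) with an adjusted p of 0.896 (limma, Benjamini-Hochberg over the whole table). Without the 3 low arrays the difference was 0.21 (adjusted p = 0.971 from limma).

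From the lowest to the highest array the signal of Igf2 differed 9.97-fold. Its SD over the 15 arrays was 1.01, larger than that of 99.8% of all genes, and over the 8 WT arrays it was 0.467, larger than that of 99.3%.

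Igf1, which in the brain is made by some neurons, microglia and vascular cells, stayed in a narrow range. It ran from 7.19 over a median of 7.41 to 7.57 in WT, and from 7.20 over 7.36 to 7.51 in KO. Every KO array lay within the WT range. The difference was -0.03 (standard error 0.072, limma adjusted p = 0.998), and its 95% confidence interval of -0.18 to 0.12 bounds a change in either direction.

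The receptors overlapped between the genotypes. Igf1r, the signalling receptor, ran from 8.68 over a median of 8.96 to 9.16 in WT and from 8.75 over 8.86 to 9.24 in KO. Of the 7 KO arrays 6 lay within the WT range and 1 lay above it. KO minus WT was -0.05 (95% confidence interval -0.22 to 0.13, adjusted p = 0.996 from limma).

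Igf2r, which clears IGF2, ran from 8.85 over a median of 9.22 to 9.49 in WT and from 9.01 over 9.27 to 9.49 in KO. All KO arrays lay within the WT range, also for its second probe, and KO minus WT was 0.03 (95% confidence interval -0.19 to 0.24, adjusted p = 0.998 from limma). Igf2r was the 1 member that differed between the array sets beside genotype, with arrays 5 to 8 higher by 0.30 (standard error 0.08, limma adjusted p = 0.0135), a call shared by 20.8% of all genes.

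Among the binding proteins Igfbp4 had the lowest p in the comparison of genotypes. IGFBP4 binds both ligands and is cut by the protease PAPP-A. In WT its log2 signal was 10.78 at the lowest, 11.08 at the median and 11.51 at the highest, and in KO 9.86, 10.74 and 11.06. The lowest WT array was undercut by 4 of the 7 KO arrays. They were replicates 2, 6, 7 and 8, at 10.74, 10.17, 10.14 and 9.86, and the 3 others overlapped with WT.

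KO minus WT for Igfbp4 was -0.56 (standard error 0.16, 95% confidence interval -0.90 to -0.22), with an unadjusted p of 0.00268 from limma and an adjusted p of 0.379. A second probe for the gene gave -0.55 (adjusted p = 0.358 over all probes, limma). On that probe KO replicate 2 read 10.41, above the lowest WT array at 10.24. There 3 KO arrays, replicates 6, 7 and 8, lay below the WT range. Without KO replicates 6, 7 and 8 the difference was -0.19 (adjusted p = 0.895 from limma).

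Igfbp6, whose product binds IGF2 in preference to IGF1, was dim. It ran from 6.29 over a median of 6.95 to 7.21 in WT and from 6.10 over 6.40 to 7.55 in KO. KO replicate 4 was the highest of all arrays and replicate 5 the lowest, so that KO spread to both sides of WT. KO minus WT was -0.30 (standard error 0.19, adjusted p = 0.953 from limma).

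Igfbp7 encodes a secreted protein of vessels with weak affinity for the IGFs. The brighter of its 2 probes ran from 10.73 over a median of 11.28 to 11.93 in WT and from 10.53 over 11.19 to 11.29 in KO. Only KO replicate 8 lay below the WT range, and KO minus WT was -0.27 (standard error 0.16, adjusted p = 0.93 from limma). The dimmer probe lay between 5.85 and 6.20 on all arrays, under the array median, with a difference of 0.08, so that the 2 probes disagree in sign.

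Igfbp2, a binding protein known from choroid plexus and astroglia, ran from 10.41 over a median of 10.89 to 11.69 in WT and from 10.71 over 10.99 to 11.66 in KO. Every KO array lay within the WT range, and KO minus WT was 0.11 (standard error 0.18, adjusted p = 0.996 from limma). Its second probe gave 0.10.

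Igfbp5, known from the granule cell lineage and from muscle, ran from 12.94 over 13.14 to 13.32 in WT and from 13.02 over 13.17 to 13.27 in KO. Its SD over the 15 arrays was 0.0987, and 7.39% of all genes had a smaller one. KO minus WT was 0.05 (95% confidence interval -0.08 to 0.17, adjusted p = 0.991 from limma).

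Igfbp3, the main carrier of IGFs in serum, ran from 7.74 over a median of 7.96 to 8.21 in WT and from 7.62 over 7.80 to 9.59 in KO. The value of 9.59 belonged to KO replicate 2 alone, and the next KO array was at 8.05. KO minus WT was 0.14 (standard error 0.21, adjusted p = 0.996 from limma) with that array and -0.12 without it.

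Of the 10 genes, 0 were called in either direction at an adjusted p under 0.05, where 0.127% of all genes (21 of 16593) were. At an unadjusted p under 0.05, Igfbp4 was the 1 member lower in KO, beside 2.63% of all genes, and 0 were higher. In 6 of 10 members KO minus WT was below 0, beside 7057 of all 16593 genes. The median was -0.04 in the members against 0.01 over all genes. No alternative in the processing that was run gave a call at an adjusted p under 0.05.

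Col1a1 was then put beside genotype in the fit, which asks how a gene varied with Col1a1 among arrays of the same genotype. A gene was taken to follow Col1a1 where its slope was above 0 at an adjusted p under 0.05 over all genes and its correlation with Col1a1 was above 0 within each genotype. Igf2, Igfbp4 and Igfbp6 met this, 3 of 10 members against 2.33% of all genes (386 of 16592).

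Igf2 had a slope of 1.04 (standard error 0.075, limma adjusted p = 1.18e-08), which is 2.06-fold more Igf2 signal for each log2 unit of Col1a1 and the rank of 12 among all genes by p. Col1a1 was itself dim on KO replicates 7 and 8 (6.93 and 6.54, near the array median of 6.84). The fold is therefore one of signals and not of transcript amounts. Igfbp4 had a slope of 0.39 (standard error 0.046, limma adjusted p = 1.15e-05), and its second probe 0.35 (adjusted p = 1.13e-04). For Igfbp6 the slope was 0.32 (standard error 0.087, adjusted p = 0.0372 from limma). Among 37 meningeal genes other than Col1a1, 26 followed it, with a median slope of 0.40 over the 37. Following Col1a1 was not limited to that list. It was met by 8 of 15 genes of microglia and macrophages and 7 of 21 endothelial genes. Of pericytes and smooth muscle it was 4 of 14 genes, and of choroid plexus 0 of 12, beside 2.33% of all genes.

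The 7 other members did not pass. Igfbp7 had a slope of 0.23 (standard error 0.08, adjusted p = 0.104 from limma), Igfbp2 0.20 (adjusted p = 0.249), Igf1 0.08 (adjusted p = 0.235) and Igfbp3 0.12 (adjusted p = 0.6). The receptors and Igfbp5 were flat against Col1a1. Igf1r had a slope of 0.01 with a 95% confidence interval of -0.09 to 0.12, Igf2r -0.03 with -0.16 to 0.11, and Igfbp5 0.00 with -0.07 to 0.08.

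**Figure D2:**
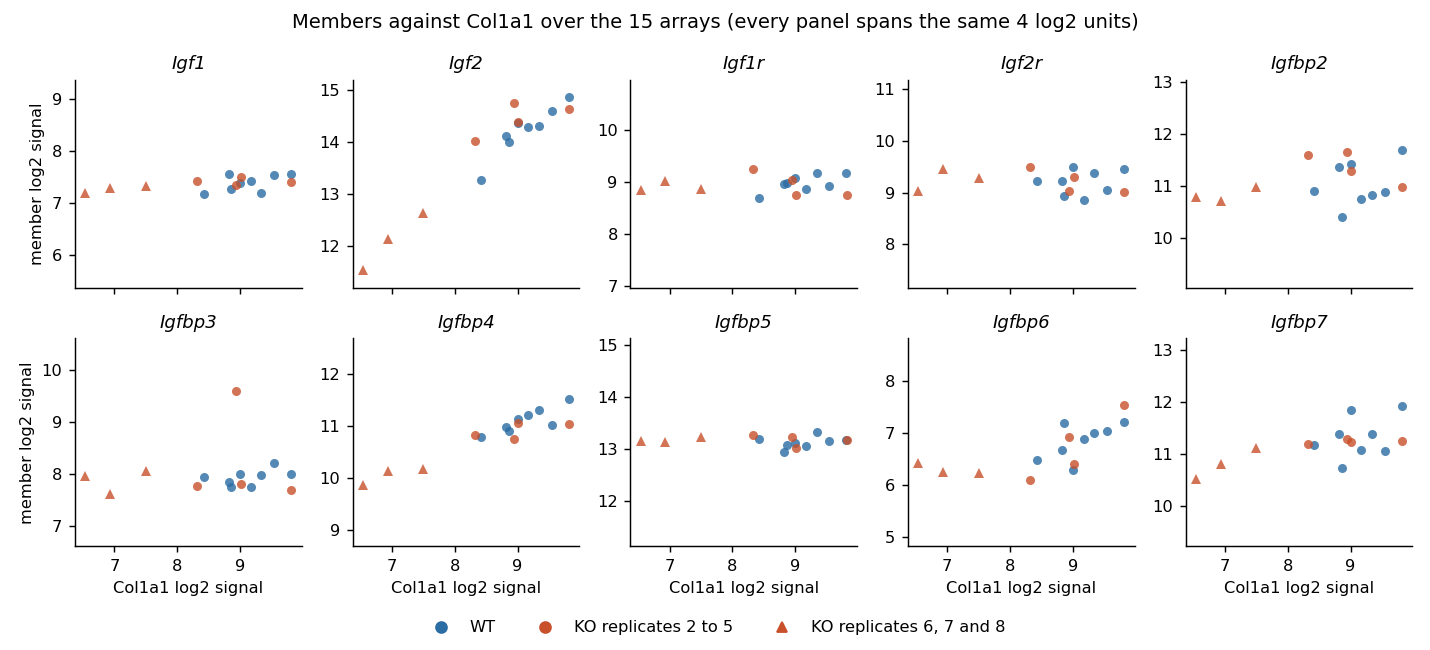
Log2 signal of each gene against that of Col1a1 on the 15 arrays, WT in blue and KO in red, with triangles for KO replicates 6, 7 and 8. Every panel spans 4 log2 units, so that the rise of Igf2 (slope 1.04) and Igfbp4 (slope 0.39) can be set beside the flat Igfbp5 (slope 0.00).

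Since the 3 low KO arrays form a separate cluster in Col1a1, correlations are given without them. Within WT, Igf2 had a Pearson r of 0.94 with Col1a1 (p = 6.45e-04) and a Spearman rho of 0.90 (p = 0.00456) by exact permutation tests of both sides over 8 arrays, and r was 0.86 without WT replicates 6 and 7, the 2 arrays farthest from the median of Col1a1. Over the 12 arrays Igf2 had an r of 0.77 (p = 0.00238) and a rho of 0.75 (p = 0.00748, permutation tests), and 0.70 without WT replicate 6 and KO replicate 4. Within the 7 arrays numbered 1 to 4 the r was 0.58 (p = 0.174, exact permutation test). The arrays numbered 5 to 8 hold too few besides the low ones for a value of their own. The limma slope of Igf2 was 0.99 in WT alone (adjusted p = 0.00333) and 0.71 over the 12 arrays (adjusted p = 0.0159), so that Igf2 passed in both.

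Igfbp4 passed in neither. Within WT its r was 0.84 (p = 0.0103) and its rho 0.83 (p = 0.0154) by exact permutation over 8 arrays, with an r of 0.46 without the 2 farthest arrays, so that the size of the relation in WT rests partly on those. Over the 12 arrays r was 0.69 (p = 0.0127) and rho 0.71 (p = 0.0121) by permutation, and r was 0.68 without the 2 farthest. Within arrays 1 to 4 the r was 0.36 (p = 0.431, exact permutation test). Its slope kept a like size, 0.44 in WT alone (adjusted p = 0.244 from limma) and 0.31 over the 12 arrays (adjusted p = 0.393).

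Igfbp6 passed in neither as well, with a larger slope than in the full set, 0.48 in WT alone (adjusted p = 0.749 from limma) and 0.70 over the 12 arrays (adjusted p = 0.0533). Over the 12 arrays its r was 0.78 (p = 0.00342) and its rho 0.70 (p = 0.0149) by permutation, and r was 0.62 without the 2 farthest. Within WT r was 0.62 (p = 0.0989) and rho 0.64 (p = 0.0962, exact permutation tests), and r was 0.32 without the 2 farthest arrays. Within arrays 1 to 4 r was 0.64 (p = 0.139, exact permutation test) and -0.18 without WT replicate 1 and KO replicate 4.

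The call of Igfbp6, near the threshold with all arrays, was lost without any 1 of 6 arrays. Without KO replicate 4 the slope went from 0.32 to 0.18 (adjusted p = 0.306 from limma). Without WT replicate 6, WT replicate 7, KO replicate 2, KO replicate 6 or KO replicate 7, the adjusted p from limma was 0.0556, 0.0667, 0.062, 0.0655 and 0.0785, and the slope stayed between 0.30 and 0.33. On the 3 low KO arrays Igfbp6 read 6.23, 6.25 and 6.43, not lower than the 6.10 of KO replicate 5. With array set as a further term Igfbp6 lost its call (slope 0.24, adjusted p = 0.239 from limma) and Igfbp7 gained one (slope 0.37, adjusted p = 0.00772), while Igf2 and Igfbp4 kept theirs.

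None of the other members had a permutation p under 0.05 in WT, over the 12 arrays or within arrays 1 to 4. Over the 12 arrays their r ran from -0.16 for Igf2r to 0.33 for Igf1. In WT alone r was 0.69 for Igf1r (p = 0.0532, exact permutation test over 8 arrays) and fell to 0.05 without the 2 farthest arrays. A correlation with Col1a1 was computed for each of the 10 members in each of the 3 sets of arrays. The permutation p are not adjusted for that number, and the adjusted p beside them come from the limma fit across all genes.

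Col1a1 itself had a KO minus WT of -0.97 (standard error 0.37, unadjusted p = 0.0177, adjusted p = 0.718 from limma), so this covariate overlaps with genotype. With Col1a1 in the fit, the difference between genotypes moved in both directions. Igf2 went from -0.79 to 0.22 (standard error 0.14), Igfbp6 from -0.30 to 0.01 (standard error 0.17) and Igfbp7 from -0.27 to -0.05 (standard error 0.15). Igfbp2 went from 0.11 to 0.30 (standard error 0.18) and Igfbp3 from 0.14 to 0.26 (standard error 0.23), farther from 0. Igfbp4 kept -0.18 (standard error 0.087, adjusted p = 0.812 from limma) and was lower in KO at an unadjusted p of 0.0499, a side of 0.05 on which 3.83% of all genes lay. At an adjusted p under 0.05, 0 of the 10 passed beside Col1a1, against 0.133% of all genes. What part the amount of meningeal tissue had in these values was not tested.

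**Figure D3:**
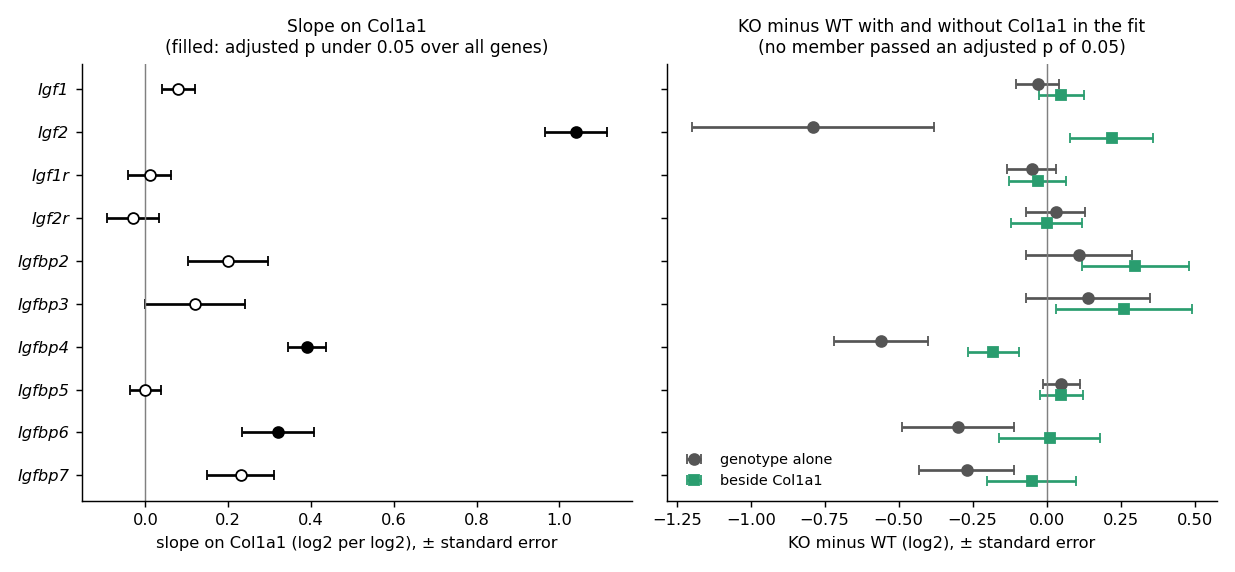
Left, slope of each gene on Col1a1 beside genotype with its standard error, filled where the adjusted p over all genes was under 0.05 (Igf2, Igfbp4, Igfbp6). Right, KO minus WT from genotype alone (grey circles) and beside Col1a1 (green squares) with standard errors, where Igf2 moves from -0.79 to 0.22 and Igfbp4 from -0.56 to -0.18.

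The division into array sets was compared in the same way. Igf2 differed between genotypes by 0.33 in arrays 1 to 4 (4 WT, 3 KO) and by -1.62 in arrays 5 to 8 (4 WT, 4 KO), a difference of -1.95 (standard error 0.55, unadjusted p = 0.00228, adjusted p = 0.258 from limma). Igfbp4 differed by -0.08 and -0.94 in these sets, and Igfbp7 by 0.19 and -0.68, with adjusted p of 0.266 and 0.258 for the difference of the differences. These were 3 of 10 members at an unadjusted p under 0.05, which 9.97% of all genes reached. At an adjusted p under 0.05 it was 0 of 10, as for all genes (0%). All 3 low KO arrays belong to the set numbered 5 to 8. Without KO replicate 5, the fourth KO array of that set, Igf2 (-2.43, adjusted p = 0.00608) and Igfbp4 (-1.05, adjusted p = 0.0124) passed in limma, as did 254 of all genes (1.53%).

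Ttr overlapped with Col1a1 in part. KO replicates 6, 7 and 8 were lowest in both, with Ttr at 7.20, 8.62 and 7.33 against 9.19 or more elsewhere, and the slope of Ttr on Col1a1 was 1.92 (unadjusted p = 0.0278, adjusted p = 0.176 from limma). The 6 arrays with the highest Igfbp2 were the 6 with high Ttr, 3 of each genotype, with Igfbp2 between 11.30 and 11.69. On the other 9 arrays, the 3 low ones among them, Igfbp2 lay between 10.41 and 10.99, and the 2 ranges do not overlap. As a covariate beside Col1a1 and genotype, Ttr had a slope above 0 at an adjusted p under 0.05 for Igfbp2 (0.10, standard error 0.015, adjusted p = 2.60e-04 from limma) and for Igf2 (0.07, standard error 0.014, adjusted p = 0.00943), against 1.42% of all genes. Igfbp7 had 0.06 (adjusted p = 0.211), Igfbp4 0.03 (adjusted p = 0.584) and Igfbp6 -0.07 (adjusted p = 0.118). Without Col1a1 in the fit, the slope on Ttr was 0.10 for Igfbp2 (adjusted p = 5.41e-05), 0.17 for Igf2 (adjusted p = 0.0559) and 0.07 for Igfbp7 (adjusted p = 0.031), so that Igf2 did not pass there and Igfbp7 did. Among all genes by p in that fit, slopes of either sign included, Igfbp2 had rank 89, Igfbp7 rank 287 and Igf2 rank 354. The 1.42% above belongs to the fit with Col1a1. Whether choroid plexus tissue in the dissection played a part was not tested.

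**Figure D4:**
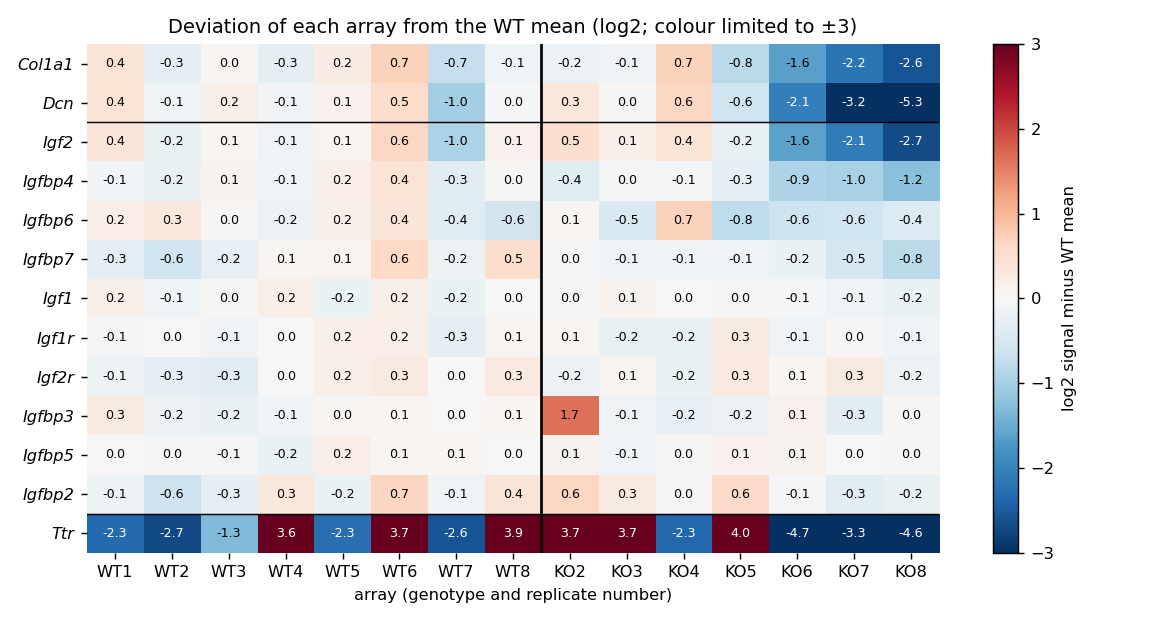
Log2 signal of each gene on each array minus its WT mean, with Col1a1 and Dcn above and Ttr below the 10 genes, and colour limited to 3 units. Igf2 and Igfbp4 follow the dark blue cells of KO replicates 6, 7 and 8, Igfbp2 follows the red cells of Ttr, and Igfbp3 shows 1 high cell in KO replicate 2 (9.59).

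By their pattern over the 15 arrays, the low ones included, the genes most like Igf2 were Lyz1, Bgn and Smagp, with a Pearson r of 0.98 for each. Bgn encodes a matrix proteoglycan. Those most like Igfbp4 were Uaca (0.97), Dab2 (0.96) and Serpinf1 (0.96). For Igfbp6 they were Lypd2 (0.90), Crabp2 (0.88), which binds retinoic acid in cells, and Wnt6 (0.86). Col1a1 itself took rank 17 in likeness to Igf2, 18 to Igfbp4 and 104 to Igfbp6.

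Igfbp2 was most like Slc5a6, Ppfibp2 and Mia (0.92, 0.92 and 0.91), and Igfbp7 most like Lrp10, Unc93b1 and Id1 (0.85, 0.84 and 0.84). Igfbp3 was most like Edn1 (0.96), which encodes a vasoconstrictor peptide, Slc2a1 (0.94), the glucose transporter of the blood-brain barrier, and Gsta3 (0.94), a likeness to which KO replicate 2 contributes. Igf1 was most like Slc16a9, Casc1 and Atp2b3 (0.85, 0.83 and 0.82). Igf1r was most like Ptk7, Use1 and Wwc2 (0.94, 0.84 and 0.83), Igf2r most like Pwwp3a, Elac2 and Sirt3 (0.94, 0.91 and 0.90), and Igfbp5 most like Wdr61, Timm10 and Dcaf11 (0.85, 0.84 and 0.84). These are descriptions over 15 arrays and carry no p.

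Further genes of the pathway were read from 5 lists. Of 12 measured relatives, carriers and proteases of the IGFs, 0 differed between genotypes at an adjusted p under 0.05, beside 0.127% of all genes. Followers of Col1a1 were 2 of the 12, beside 2.33% of all genes. These were Htra1, a protease that cuts binding proteins (slope 0.39, adjusted p = 1.68e-04), and Ghr, the growth hormone receptor (slope 0.19, adjusted p = 0.00665). The lowest p between genotypes were those of Gh (0.29, adjusted p = 0.729), Ghr (-0.15, adjusted p = 0.941) and Igfals (0.10, adjusted p = 0.975). Gh (means of 6.10 in WT and 6.38 in KO) and Igfals (6.45 and 6.55) were dim, below the array median. Igfbpl1, a binding protein relative, averaged 12.06 on the WT arrays and 12.09 on the KO arrays (SD 0.10 and 0.12).

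Of 20 receptors and adaptors, 0 differed, beside 0.127% of all genes. The adaptor Shc1 was the 1 of 20 that followed Col1a1 (slope 0.36, adjusted p = 3.17e-06 from limma), beside 2.33% of all genes. Grb10, an imprinted adaptor that restrains the receptors, had the lowest p between genotypes (-0.13, adjusted p = 0.896), followed by Socs2 (-0.12, adjusted p = 0.93) and Shc1 (-0.21, adjusted p = 0.966). Of 27 genes of the PI3K, AKT and TOR relay, 0 differed. Eif4ebp1, a repressor of translation, was the 1 of 27 that followed Col1a1 (slope 0.23, adjusted p = 0.0172), a share near the 2.33% of all genes. Pik3r3, a regulatory subunit, had the lowest p of that list (-0.21, adjusted p = 0.655), followed by Rps6kb2 (0.14, adjusted p = 0.796) and Gsk3b (-0.17, adjusted p = 0.895). Rps6kb2 was dim, with means of 6.78 in WT and 6.92 in KO.

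The median of KO minus WT was 0.03, -0.02 and 0.01 in these 3 lists, beside 0.01 over all genes. Both measured IGF2 mRNA-binding proteins overlapped between genotypes, with -0.03 for Igf2bp3 and -0.07 for Igf2bp1 (adjusted p = 0.996 and 0.997 from limma). Igf2 and Igf2r are on a list of imprinted genes, which does not say which alleles were active in this tissue. Among 28 genes of that list 0 differed between genotypes, beside 0.127% of all genes. Cdkn1c (-0.26, adjusted p = 0.46), Slc22a18 (0.23, adjusted p = 0.583) and Mest (-0.37, adjusted p = 0.593) were lowest in p. Slc22a18 was dim, with means of 6.60 in WT and 6.84 in KO. Besides Igf2, Dcn was the 1 gene of the 28 that followed Col1a1 (slope 1.63, adjusted p = 1.10e-07), where 2.33% of all genes did.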

How the data were processed

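RNA from whole cerebella of 8 WT and 7 KO mice was amplified, labelled with biotin and hybridised to Illumina MouseRef-8 v2 BeadChips. The authors extracted signals with GenomeStudio and deposited the signal intensity of 25697 probes without normalization, together with log2 values shifted to a common array median of 6.84. Signals were log2 transformed and scaled to that median here, and the result equals the deposited log2 values to within 6.2e-05. The median signal of an array ran from 101.2 to 120.8 (WT) and from 97.3 to 122.9 (KO), and no detection p was used. The number of arrays limits the precision. Symbols came from the platform annotation, updated through a RefSeq table (23962 probes matched), and the brightest probe stood for each of 16593 genes.

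Genes were tested in limma 3.58.1 (lmFit and eBayes, both sides) under R 4.3.3, with p-values adjusted by Benjamini-Hochberg across the whole table and called under 0.05. Correlations had exact permutation tests or 100000 resamples in scipy 1.17.1. The scripts were tested on simulated data. Named genes were all members, 3 like genes for each, and of each pathway list the genes past the threshold, or the 3 lowest in p where none passed. Igfbpl1 was chosen after its values were seen. The members, lists and array sets were chosen with earlier results of these data known. Alternatives covered normalization, background, probes, covariates, array sets and leaving out arrays. Those without KO replicates 6, 7 and 8, and with Col1a1 and Ttr together, were added after seeing the data.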

Additional observations from a re-analysis of the deposited data

Results flagged for a closer look

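Igfbp3 on KO replicate 2 stood far from the other KO arrays. Its log2 signal was 9.59 and the next KO array was at 8.05, a gap of 0.78 of the range of the 7 arrays, where Dixon's 95% critical value is 0.568. The other 31 groups tested, each a probe of a member, of Col1a1 or of Cxcr4 in 1 genotype, gave no such value, and chance gives about 1 in 20. Without that array the KO mean was 7.81 ± 0.16 (SD, n = 6), and KO minus WT went from 0.14 to -0.12. Igf2, on the same array, was at 14.75 and within the WT range.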

How the results depend on the processing

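At an unadjusted p under 0.05 the count of members that differ between KO and WT was 1 (Igfbp4), and under every other alternative run it stayed 0. No pairing of the arrays by replicate number was seen. Deviations of same-numbered arrays over all genes correlated between -0.20 and 0.39, and 1 of 7 correlated best with its own number. These deviations also hold the differences in array set and in meningeal and choroid plexus transcripts. They therefore cannot exclude a pairing by litter or handling. With the replicate number as a block, 0 members passed and the difference of Igfbp4 was -0.57. The count that followed Col1a1 was 3 (2.33% of all genes), and it was 6 without normalization (9.31%), 5 at an unadjusted p (4.86%), 1 (Igf2) in WT alone (0.506%) and 1 (Igf2) without KO replicates 6, 7 and 8 (0.488%). Igfbp6 also lost its call with Dcn as the reference (adjusted p = 0.196 from limma), with robust eBayes settings (0.0947, slope 0.32), in KO alone (0.0952, slope 0.29) and with array set blocked in the fit (0.239, slope 0.24). Igfbp7 gained one with array set blocked (adjusted p = 0.00772), with quantile normalization (0.0452), without normalization (0.00795), without genotype in the fit (0.0394) and in KO alone (0.0292). The count that differed between array sets was 0 (0% of all genes), and 2 (Igf2, Igfbp4) with array weights (0.796%). Leaving out 1 array at a time gave 0 to 2.

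Several differences that were not called changed sign. KO minus WT became 0.33 for Igf2, 0.01 for Igfbp6 and 0.19 for Igfbp7 in arrays 1 to 4 alone, and -0.07 for Igf2r, -0.19 for Igfbp2 and -0.13 for Igfbp3 in arrays 5 to 8 alone. With Col1a1 as a covariate it was 0.05 for Igf1, 0.22 for Igf2 and 0.01 for Igfbp6, and with Col1a1 and Ttr 0.03 for Igf1, 0.13 for Igf2, -0.05 for Igf2r and 0.10 for Igfbp6. Without KO replicates 6, 7 and 8 it was 0.04 for Igf1 and 0.21 for Igf2. With Xist as a covariate it was -0.02 for Igf2r, -0.12 for Igfbp2 and -0.02 for Igfbp5, while Igf2 had -1.31 and Igfbp4 -0.83. Leaving out 1 array at a time, Igf2r ran from -0.02 to 0.07 and Igfbp3 from -0.12 to 0.21. Slopes on Col1a1 also changed sign. Igf1r had -0.02 with array weights, -0.03 with Ttr added, -0.03 in KO alone and -0.01 without KO replicates 6, 7 and 8. Igf2r had 0.06 without normalization, 0.10 with array set blocked and 0.11 in WT alone. Igfbp2 had -0.02 without KO replicates 6, 7 and 8. Leaving out 1 array at a time, the slope ran from -0.01 to 0.07 for Igf1r, from -0.09 to 0.02 for Igf2r and from -0.02 to 0.29 for Igfbp3. The cause was not tested. Genotype and sex overlap in these arrays, and dim genes such as Igfbp6 lie near the array median.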
